A study of Homo sapiens with 6 samples.

Results

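The zinc finger genes described here are those whose current symbol is ZNF followed by a number, with or without one letter, and that lie on chromosome 19. The rule uses name and position and no measured value, but it was chosen with earlier results of these data known. Of the 19775 genes measured, 220 met the rule: 213 protein-coding genes and 7 pseudogenes. The reference gene table holds 263 such genes. Of the 43 that are not analysed here, 8 were named only by probe sets that name several genes. T47D cells are a long-established human line from a luminal breast cancer. RNA was taken from T47D cells treated with GDC-0941, an inhibitor of all class I PI3 kinases, for 6 hours (3 arrays), and from T47D control cells whose agent is labelled none (3 arrays). The labels give the dose as 1 mM, a unit that is uncertain because a micro sign may have been lost, and do not say whether control cells received the solvent. Nothing in them tells whether replicates were cultured separately. The p-values therefore reflect how far these arrays differ, which may be technical spread.

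Most zinc finger genes of this chromosome arose by tandem duplication and lie in clusters of related copies. Many encode a KRAB domain ahead of a row of C2H2 zinc fingers. The fingers bind DNA, often within transposable elements, and the KRAB domain recruits the corepressor TRIM28, which brings the histone H3 lysine 9 methyltransferase SETDB1, heterochromatin protein HP1, the NuRD complex and DNA methylation.

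Values are log2 RMA signals. RMA brings the probe values of the arrays to a common distribution before summarising, so a difference is relative to the other transcripts. Array medians over all probe sets lay between 7.34 and 7.38, and arrays correlated at 0.9970 to 0.9983 within groups and at 0.9917 to 0.9942 between groups, across probe sets. The 9 luminal markers measured, among them ESR1, GATA3 and KRT18, had mean levels of 11.89 to 14.27. The 4 basal markers measured reached 8.79 and the 4 leukocyte markers 8.81. Of 6 fibroblast markers, COL1A1 reached 10.69 and the others at most 8.55. COL1A1 averaged 10.97 under GDC-0941 and 10.40 in controls and rose (log2 difference 0.56, adjusted p = 6.53e-05 in limma), while none of the other 5 passed. Of the luminal markers FOXA1 (0.53), PGR (0.42) and CDH1 (0.19) also rose, and KRT8 (-0.23) and KRT18 (-0.21) fell, at an adjusted p under 0.05. The other luminal markers and the basal and leukocyte markers did not pass. Whether RNA of other cells contributes was not tested.

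Chromosome 19 zinc finger transcripts were more often higher than lower after GDC-0941. Of the 220, 54 rose (24.5%) and 10 fell (4.55%) at an adjusted p under 0.05 in limma, where 12.1% of all 19775 genes rose and 15.6% fell. The changes were small: the 54 rises had a median log2 difference (GDC-0941 minus control) of 0.30, the highest being 0.83, and the 10 falls had a median of -0.25, the lowest being -0.30. Over all 220 the median log2 difference was 0.06, with a middle range (25th to 75th percentile) of -0.05 to 0.18, against a median of -0.02 over all genes. The count of falls was 6 without GDC-0941 replicate 2 and 5 without Control replicate 3, while the count of rises stayed between 40 and 52 without each array in turn. Hybridisation controls are labelled bacterial and phage transcripts added at hybridisation, not to the RNA samples, so they do not measure RNA amount. When arrays were instead centred on these controls, 109 rose and 0 of the 220 fell in limma, also 0 at an unadjusted p under 0.05. With that centring 28.8% of all genes rose and 4.53% fell, and their median was 0.15. The rises and the falls of the 220 genes on the deposited scale are thus both relative to the other transcripts of the array.

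On each array the median difference of the 220 genes from the mean of the controls was 0.07, 0.04 and 0.08 in GDC-0941 replicates 1, 2 and 3, against -0.002, -0.006 and 0.02 in Control replicates 1, 2 and 3. The same median over all genes was -0.04, -0.005 and -0.009 under GDC-0941 and -0.004, -0.008 and 0.01 in controls. The 3 GDC-0941 values of the zinc finger genes lay above all 3 control values, by a margin well below the change of any single gene called. By gene, the GDC-0941 arrays lay above all control arrays in 69 of the 220 and below them all in 25, shares of 31.4% and 11.4%, where 17.5% and 24% of all genes did so.

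Zinc finger genes of other chromosomes, selected by the same symbol rule, also held more rises than falls: 54 of 246 rose (22.0%) and 26 fell (10.6%), with a median log2 difference of 0.03. The other genes of chromosome 19 held more falls than rises on the deposited scale, where 63 of 1100 rose (5.73%) and 241 fell (21.9%), with a median of -0.06, and more rises than falls with hybridisation control centring, where 198 rose (18.0%) and 63 fell (5.73%), with a median of 0.11. With that centring 49.5% of the chromosome 19 zinc finger genes rose and 0% fell, and 42.3% of those elsewhere rose and 2.44% fell, beside 28.8% and 4.53% of all genes. These are counts side by side and no test of the difference between the sets was made.

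**Figure D1:**
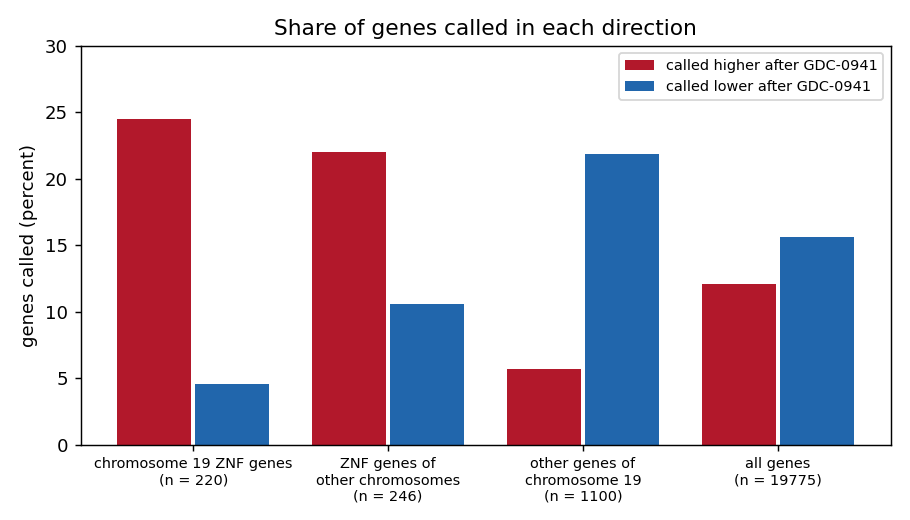
Bars give the percent of genes called higher (red) and lower (blue) after GDC-0941 at an adjusted p under 0.05, in 220 zinc finger genes of chromosome 19, 246 of other chromosomes, 1100 other genes of chromosome 19 and all 19775 genes. Rises outnumber falls in both zinc finger sets. Falls outnumber rises among the other genes of chromosome 19, and over all genes, on the deposited scale. With hybridisation control centring both orders turn. Of the other genes of chromosome 19, 198 then rose (18.0%) and 63 fell (5.73%), beside 28.8% and 4.53% of all genes.

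ZNF875, a KRAB zinc finger gene formerly named HKR1, rose most. It had log2 signals of 9.61, 9.37 and 9.46 under GDC-0941, against 8.66, 8.61 and 8.69 in controls. That is a log2 difference of 0.83 ± 0.07 (SE; 1.77-fold), with an adjusted p of 6.1e-06 in limma. The groups were separated by more than the range within either. ZNF610 had 8.16, 7.99 and 8.06 under GDC-0941, against 7.52, 7.37 and 7.55 in controls, a log2 difference of 0.59 ± 0.07 (SE; adjusted p = 6.45e-05 in limma). ZNF493 had 8.72, 8.40 and 8.53 under GDC-0941, against 7.95, 7.97 and 8.02 in controls, a log2 difference of 0.57 ± 0.08 (SE; adjusted p = 0.000173 in limma). Its controls lay close together, and all GDC-0941 values were above them, which the choice of these genes required.

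ZNF350 (ZBRK1), a KRAB repressor known to bind BRCA1, had log2 signals of 8.51, 8.12 and 8.31 under GDC-0941, against 7.81, 7.64 and 7.89 in controls. Its log2 difference was 0.53 ± 0.10 (SE; adjusted p = 0.00135 in limma), with GDC-0941 replicate 2 nearest to the controls. ZNF558, ZNF440, ZNF302, ZNF112, ZNF552 and ZNF844 completed the 10 largest rises, with log2 differences of 0.50 to 0.53. None of their GDC-0941 values fell among the control values, which the choice of these genes required. ZNF844, the last of these, had 9.87, 9.71 and 9.80 under GDC-0941, against 9.32, 9.30 and 9.26 in controls.

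**Figure D2:**
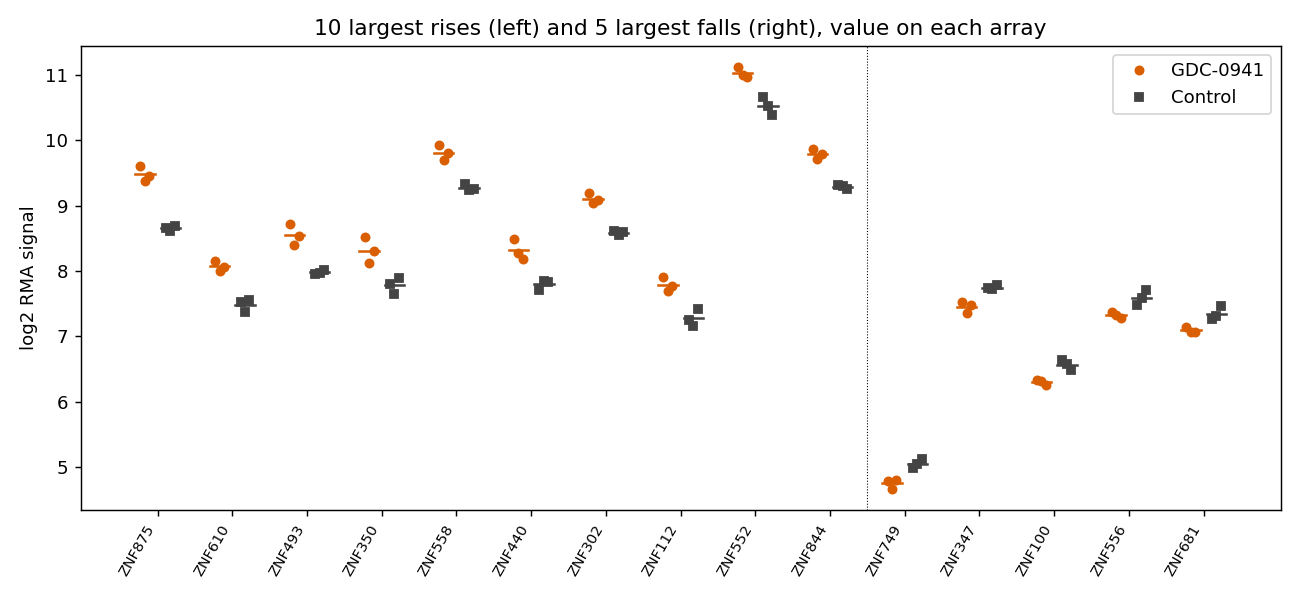
Points are log2 RMA signals on each of the 3 GDC-0941 arrays (orange circles) and 3 control arrays (grey squares), and lines are group means, for 15 called members, the 10 that rose most and the 5 that fell most. In every gene shown the groups do not overlap, which the choice of these genes required. The log2 differences are 0.50 to 0.83 for the rises and -0.30 to -0.26 for the falls.

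All 10 falls were smaller than the 10 largest rises. ZNF749 had log2 signals of 4.78, 4.67 and 4.81 under GDC-0941, against 4.98, 5.05 and 5.12 in controls, a log2 difference of -0.30 ± 0.06 (SE; adjusted p = 0.00381 in limma). ZNF347 had 7.53, 7.35 and 7.48 under GDC-0941, against 7.73, 7.72 and 7.78 in controls, a log2 difference of -0.29 ± 0.06 (SE; adjusted p = 0.00402 in limma). ZNF100, ZNF556 and ZNF681 had log2 differences of -0.27, -0.26 and -0.26. The call of each of these 5 held without any one array. ZNF296, ZNF30, ZNF708, ZNF530 and ZNF324B, with log2 differences of -0.25 to -0.20, each lost the call when some single array was left out, and ZNF30 also when the arrays were quantile normalized again. With the mean of all probe sets of a gene, ZNF347 (-0.18), ZNF681 (-0.13) and ZNF324B (-0.10) lost the call. With hybridisation control centring all 10 falls did, at log2 differences of -0.13 to -0.03.

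The losses were as follows, with limma's adjusted p. Without GDC-0941 replicate 1 it was 0.0568 for ZNF708, 0.0648 for ZNF530 and 0.0832 for ZNF324B. Without GDC-0941 replicate 2 it was 0.0598 for ZNF296, 0.0907 for ZNF30, 0.0814 for ZNF708 and 0.0585 for ZNF530. Without GDC-0941 replicate 3 it was 0.058 for ZNF30 and 0.0821 for ZNF324B. Without Control replicate 1 it was 0.0646 for ZNF30. Without Control replicate 2 it was 0.052 for ZNF708, 0.0553 for ZNF530 and 0.0745 for ZNF324B. Without Control replicate 3, the array on which all 5 had their highest value, it was 0.0652 for ZNF296, 0.0842 for ZNF30, 0.101 for ZNF708, 0.0962 for ZNF530 and 0.106 for ZNF324B.

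The following members were taken for their known roles, whatever their values. ZNF91, whose product silences SVA elements, a hominid family of retrotransposons, rose. It had log2 signals of 10.15, 10.08 and 10.14 under GDC-0941, against 9.66, 9.65 and 9.83 in controls, a log2 difference of 0.41 ± 0.06 (SE; adjusted p = 0.000535 in limma). ZNF93, which acts on LINE-1 elements, had 10.29, 10.32 and 10.35 under GDC-0941, against 10.30, 10.31 and 10.24 in controls. Those groups overlapped, and the log2 difference was 0.04 ± 0.05 (SE; adjusted p = 0.697 in limma). ZNF224, a KRAB repressor of the aldolase A gene, had 7.16, 7.03 and 7.03 under GDC-0941, against 6.82, 6.72 and 6.61 in controls. It rose by a log2 difference of 0.36 ± 0.07 (SE; adjusted p = 0.00193 in limma).

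ZNF175, known for repressing HIV transcription in macrophages, had 8.11, 8.45 and 8.17 under GDC-0941, against 7.99, 7.93 and 7.67 in controls, and rose by 0.38 ± 0.10 on the log2 scale (SE; adjusted p = 0.0138 in limma). GDC-0941 replicate 2 was its highest array, and without it the call was lost (log2 difference 0.27, adjusted p = 0.0593 in limma). ZNF568, whose mouse counterpart represses a placental Igf2 transcript, rose by 0.20 (adjusted p = 0.0344 in limma), a call that was lost without GDC-0941 replicate 1 (adjusted p = 0.0588), GDC-0941 replicate 3 (0.159), Control replicate 2 (0.133) or Control replicate 3 (0.0892). In the fit over probe sets described below none of its 5 probe sets passed, and its call was also lost with a variance trend and robust fit (adjusted p = 0.0538 in limma). ZNF274, which brings SETDB1 to the 3' ends of zinc finger genes themselves, did not pass, with a log2 difference of 0.06 ± 0.06 (SE; adjusted p = 0.514 in limma). The others that did not pass were ZNF420, an inhibitor of p53 (0.15), ZNF146, which consists almost wholly of fingers (0.04), ZNF649, a repressor of serum response reporters (-0.02), ZNF331 (-0.02), ZNF382 (-0.06) and ZNF473, which takes part in processing histone mRNA ends (-0.13). A second probe set of ZNF420 rose by 0.36, and a second one of ZNF473 differed by -0.20 and was called lower. ZNF350, which rose as described above, was also taken for its role.

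The gene value is that of the brightest probe set that names 1 gene, and 128 of the 220 genes had at least 2, with 425 probe sets in all. Fitted over all 54613 probe sets, 80 of the 425 rose and 13 fell, where 8.88% of all probe sets rose and 9.89% fell. Among the 64 called genes 39 had more than 1 probe set, and in 12 of these at least 2 were called the same way. Their other 70 probe sets lay on the same side of 0 in 58 cases. Of the 70, 17 were called the same way and 0 the opposite way.

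Single genes differed in how far their probe sets agreed. All 4 probe sets of ZNF493 rose, by 0.25 to 0.57 on the log2 scale. The rise of ZNF875 came from 1 of 3 probe sets, since the others, at mean levels of 6.88 and 6.79, differed by 0.09 and 0.07. For ZNF552 the second probe set, at a mean level of 6.18, differed by -0.15 without passing, so with probe sets lacking an x, s or a suffix (unmarked) taken first the sign turns, and with the mean of both the call is lost (0.18). ZNF440 likewise loses its call with unmarked probe sets first, as its other probe sets differed by 0.06 and 0.15. ZNF91 had 3 of 7 probe sets called higher and ZNF224 2 of 6.

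Some genes that were not called had other probe sets that rose. ZNF585A was not called by its brightest probe set (log2 difference -0.16 ± 0.06 SE, adjusted p = 0.0733 in limma), while its other 3 rose by 0.42 to 0.45. The mean of its probe sets gave 0.28 with an adjusted p of 0.00118. One of 4 probe sets of ZNF93 rose, by 0.22. In all, 19 members not called had another probe set called, higher in 15 and lower in 4. Paralogs share sequence, and in 67 members the chosen probe set has a manufacturer's suffix (x, s or f) for probes that can match other transcripts. Among these 20 rose (29.9%) and 1 fell (1.49%), against 34 (22.2%) and 9 (5.88%) of the other 153, so rises outnumbered falls in both. The 20 became 13 without Control replicate 1, and the 9 became 5 without Control replicate 3. The share of signal that comes from a paralog was not tested.

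**Figure D3:**
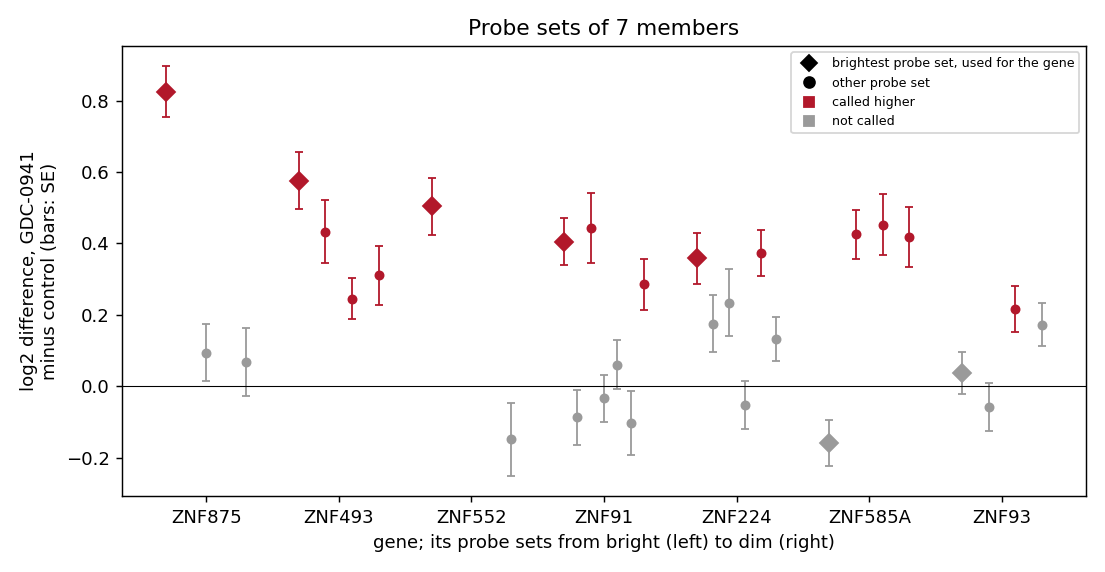
Each point is the log2 difference of 1 probe set with its SE, for 7 members, ordered from bright to dim within a gene. Diamonds mark the probe set used for the gene, and red marks a call. All 4 probe sets of ZNF493 lie above 0, 1 of 3 of ZNF875 was called, and in ZNF585A the 3 dimmer probe sets rose while the brightest did not.

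The rises were not spread evenly over expression level. All genes were divided into 4 equal bins by mean level over the 6 arrays, at 6.97, 8.20 and 9.72, levels that also depend on how well a probe set binds. In the lowest bin 5 of 47 zinc finger genes rose (10.6%) and 2 fell, where 3.8% of all genes rose and 3.11% fell. In the second, 18 of 80 rose (22.5%) and 8 fell (10.0%), where 7.18% and 7.75% of all genes did. In the third, 28 of 82 rose (34.1%) and 0 fell in limma (4 at an unadjusted p under 0.05), where 16.4% and 22.4% of all genes did. In the highest, 3 of 11 rose (27.3%) and 0 fell (0 unadjusted), where 21.1% and 29.3% did.

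The share of rises was thus above that of all genes in every bin, by the least in the highest, which holds 11 members. The median log2 difference was 0.03, 0.03, 0.11 and 0.06 from the lowest bin to the highest, against -0.008, -0.02, -0.02 and -0.03 over all genes. With single arrays left out in turn the rises numbered 2 to 4, 12 to 18, 21 to 28 and 3 in the 4 bins. The 5 rises of the lowest bin became 2 without Control replicate 2 and 3 without GDC-0941 replicate 1, GDC-0941 replicate 2 or Control replicate 3. The 8 falls of the second bin became 3 without Control replicate 3, 4 without GDC-0941 replicate 2 and 5 without GDC-0941 replicate 1 or Control replicate 2. In the third bin 2 fell without GDC-0941 replicate 1. Across the 220 genes, level and log2 difference correlated at Pearson's r = 0.25 (Spearman's rho = 0.25), and across all 19775 genes at r = -0.05 (rho = -0.07). These genes share the same 6 arrays, so the values are descriptions.

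**Figure D4:**
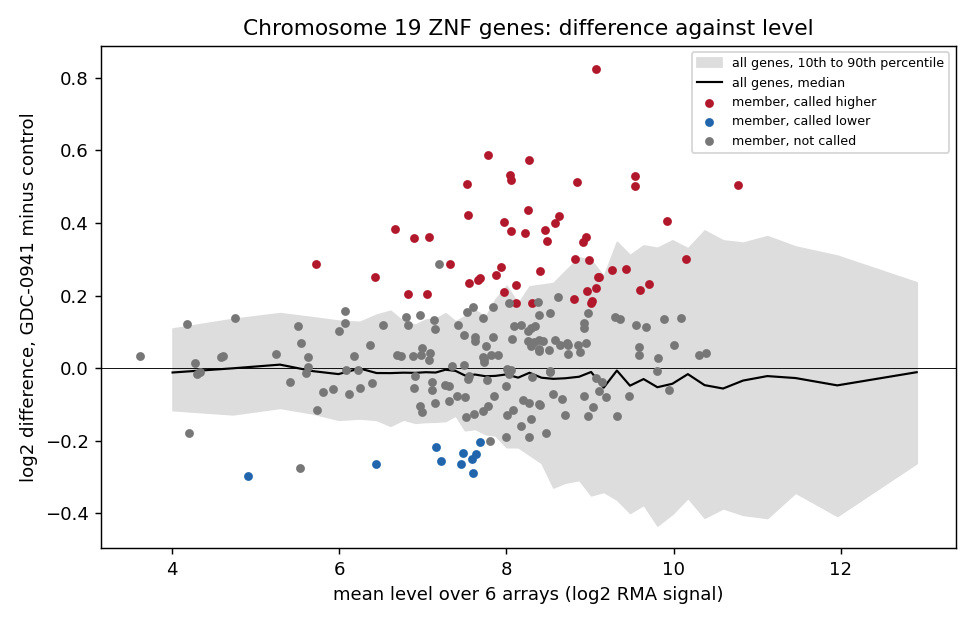
Each point is 1 of 220 zinc finger genes, by mean log2 RMA signal over 6 arrays and log2 difference (GDC-0941 minus control), coloured by call. The band spans the 10th to 90th percentile of all genes at that level and the line their median. Most called rises lie at levels between 7 and 10, and all 10 falls lie below 8.20.

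Ordered along the chromosome, the 220 genes fell into 24 groups when members with at most 5 other protein-coding genes between them were joined, and 10 groups with at least 5 members held 194 of the genes. Clusters are named here by their first and last measured members, and their counts stand beside the 12.1% of all genes that rose and the 15.6% that fell. In the cluster of 34 genes from ZNF577 to ZNF331 12 rose (35.3%), led by ZNF610, and 1 fell, ZNF347. In the cluster of 41 from ZNF264 to ZNF446 10 rose (24.4%), led by ZNF552, and 3 fell (7.32%), ZNF749 most. Without Control replicate 2 the rises in these clusters numbered 7 and 8, so which of them held more depended on that array. The falls in the cluster from ZNF264 came to 1 without GDC-0941 replicate 1, Control replicate 2 or Control replicate 3, and to 2 without GDC-0941 replicate 2 or GDC-0941 replicate 3. Among 25 genes from ZNF565 to ZNF573 7 rose (28.0%), led by ZNF875, and none fell (2 at an unadjusted p under 0.05 in limma). ZNF585A had the lowest value there (-0.16) by its brightest probe set. Among 21 from ZNF653 to ZNF791 7 rose (33.3%), led by ZNF440, and none fell (0 unadjusted), with ZNF136 lowest (-0.14). The 7 became 3 without Control replicate 1 and 4 without GDC-0941 replicate 3, and ZNF136 was called lower without GDC-0941 replicate 1 (adjusted p = 0.0417 in limma).

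The cluster of 19 genes from ZNF283 to ZNF180 was the most uniform in sign. In 18 of the 19 (94.7%) the log2 difference was above 0, where 65.0% of all members and 44.9% of all genes were. The exception was ZNF180 at -0.005. Some of the 18 were below their SE, such as ZNF404 (0.03 ± 0.07) and ZNF229 (0.005 ± 0.08). At the threshold 5 rose (26.3%), led by ZNF112 (0.51), and none fell (0 unadjusted). The cluster's median was 0.09. Several of its chosen probe sets, among them those of ZNF112 and ZNF226, have the suffix x or s. Whether the 19 values are separate readings was not tested. The 27 genes from ZNF101 to ZNF254, the cluster that holds ZNF91 and ZNF93, had 3 rises (11.1%), led by ZNF493, and 3 falls (11.1%), ZNF100 most, with a median of 0.04. Those shares are near the ones over all genes. Among 8 genes from ZNF542P to ZNF835 only ZNF667 rose (0.44) and 2 of 8 differences were above 0, with ZNF582 lowest (-0.13) and none called lower (1 unadjusted). Among 5 from ZNF554 to ZNF77 none rose and ZNF556 fell, with ZNF554 highest (0.06). A second member fell without GDC-0941 replicate 1. Of 7 from ZNF317 to ZNF562, 2 rose, led by ZNF266 (0.27), with ZNF121 lowest (-0.06). These 2 became 3 without GDC-0941 replicate 2 and 4 without Control replicate 3. Of 7 from ZNF628 to ZNF580, ZNF580 rose (0.23), and ZNF865 was lowest (-0.10).

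**Figure D5:**
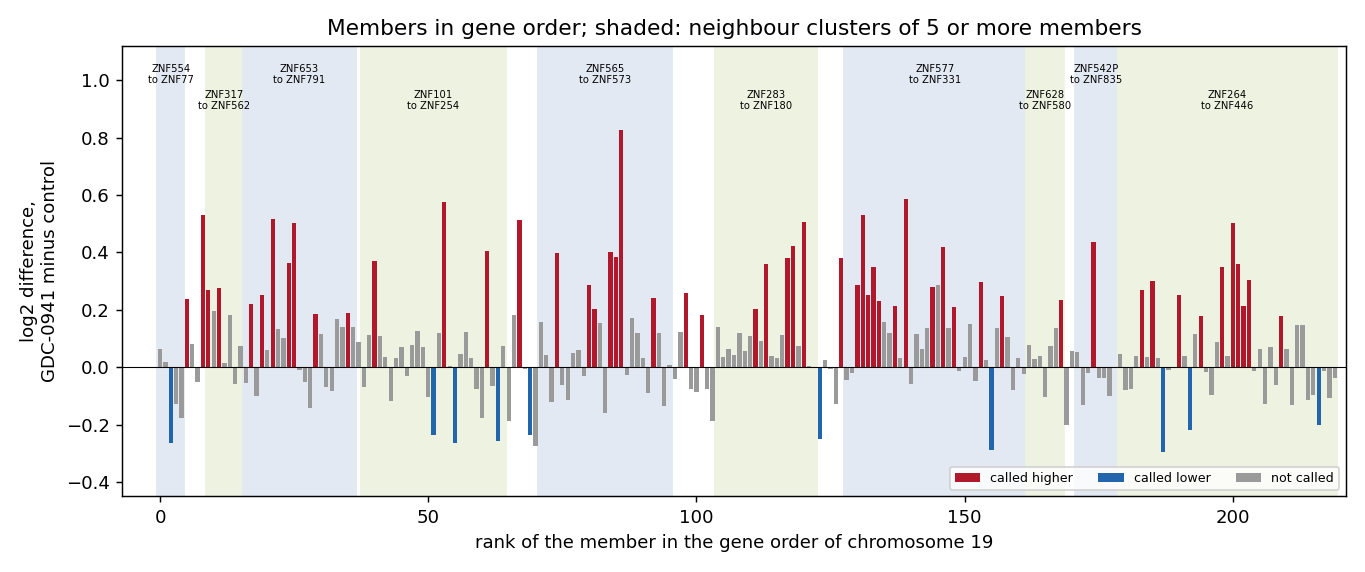
Bars are log2 differences (GDC-0941 minus control) of the 220 genes in their order along chromosome 19, without distances, with red for called higher and blue for called lower. Shaded blocks are the 10 neighbour clusters with at least 5 members, each labelled with its first and last gene. Bars above 0 dominate from ZNF283 to ZNF180 and from ZNF577 to ZNF331, and both directions occur from ZNF101 to ZNF254.

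Promoter windows (250 bases before to 50 after the start, 300 in all, RefSeq, GRCh38.p14) were matched for 188 of the 220 genes. Their median GC content was 60.5%, against 63.0% for 15382 genes tested, and it was 59.2% in 44 risers and 61.0% in 135 members not called. The FOXO motif GTAAACA, on both strands, was in none of the 188 windows, against 2.62% of the genes tested and 3.41% of all 27305 windows. Absence says only that these letters are not in the window. The E-box CACGTG was in 9 (4.79%), against 8.9% of the genes tested and 7.43% of all windows. The cAMP response element TGACGTCA was in 6 (3.19%), against 2.67% of the genes tested and 1.98% of all windows. Among 44 risers with a window, 3 held the E-box (6.82%) and 1 the cAMP response element (2.27%), both below the shares of the genes tested.

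The 3 risers with an E-box were ZNF587B, ZNF587 and ZNF814, which follow ZNF552 directly in the order of measured members, so that 4 neighbours in a row rose. They are shown as neighbours with the same motif, in capitals here, and not because the motif was frequent among risers. It lies 50, 42 and 45 bases before the start. They were chosen after their values were seen.
ZNF587B (chr19:57830209-57830294, plus strand): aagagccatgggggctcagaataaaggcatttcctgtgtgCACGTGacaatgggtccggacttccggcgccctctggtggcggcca
ZNF587 (chr19:57849777-57849862, plus strand): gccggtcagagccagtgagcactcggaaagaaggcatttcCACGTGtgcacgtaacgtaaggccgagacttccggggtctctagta
ZNF814 (chr19:57889037-57889122, minus strand): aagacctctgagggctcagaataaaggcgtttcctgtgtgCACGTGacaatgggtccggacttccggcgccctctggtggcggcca
The 86-base windows of ZNF587B and ZNF814 are 94.2% identical. That of ZNF587, aligned on the motif without gaps, matches them in 34.9% and 29.1% of bases. These low shares come from an alignment out of register. All 3 windows hold the stretch gtgtgcacgt, which runs into the motif in ZNF587B and ZNF814. By that stretch the place of their motif reads cacgta in ZNF587, whose own motif lies earlier. ZNF587B had log2 signals of 9.21, 9.12 and 9.05 under GDC-0941, against 8.80, 8.81 and 8.70 in controls (log2 difference 0.36, adjusted p = 0.00103 in limma). ZNF587 had 9.74, 9.67 and 9.72 under GDC-0941, against 9.43, 9.51 and 9.56 in controls (0.21, adjusted p = 0.0154 in limma). The call of ZNF587 was lost without GDC-0941 replicate 3 (adjusted p = 0.0611) or Control replicate 1 (0.0821). ZNF814 had 9.05, 8.84 and 9.01 under GDC-0941, against 8.56, 8.68 and 8.76 in controls (0.30, adjusted p = 0.00804 in limma). In all 3 the groups did not overlap. The probe sets of ZNF587B and ZNF587 have the suffix x and that of ZNF814 the suffix f, and whether these 3 values are separate readings was not tested. The call of ZNF814 was lost with the mean of its 5 probe sets (log2 difference 0.11, adjusted p = 0.212 in limma).

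Another motif was also shared by neighbours, of which 1 rose. Of the 6 cAMP response elements, 4 lay in the cluster from ZNF317 to ZNF562, at 17, 21, 50 and 7 bases before the starts of ZNF266, ZNF426, ZNF121 and ZNF562, with the element in capitals.
ZNF266 (chr19:9435543-9435630, minus strand): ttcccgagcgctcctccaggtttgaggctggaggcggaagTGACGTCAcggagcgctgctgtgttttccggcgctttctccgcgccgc
ZNF426 (chr19:9538619-9538706, minus strand): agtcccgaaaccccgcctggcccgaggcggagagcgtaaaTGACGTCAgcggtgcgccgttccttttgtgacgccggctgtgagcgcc
ZNF121 (chr19:9584507-9584594, minus strand): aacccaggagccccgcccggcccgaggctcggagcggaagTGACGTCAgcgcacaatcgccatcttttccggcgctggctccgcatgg
ZNF562 (chr19:9675060-9675147, minus strand): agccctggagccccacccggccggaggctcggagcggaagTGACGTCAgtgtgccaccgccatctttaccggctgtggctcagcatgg
The 88-base windows of ZNF121 and ZNF562 are 85.2% identical, and the other pairs at most 53.4%. ZNF266 had log2 signals of 9.62, 9.52 and 9.58 under GDC-0941, against 9.32, 9.26 and 9.31 in controls, and rose (log2 difference 0.27, adjusted p = 0.00299 in limma). ZNF426 had 8.14, 8.01 and 8.22 under GDC-0941, against 7.94, 7.81 and 8.07 in controls, with overlap (0.18, adjusted p = 0.112 in limma). It was called higher without Control replicate 3 (adjusted p = 0.0397), with the mean of its probe sets (0.00164), with hybridisation control centring (0.00196) and with array weights (0.000429), and its other probe set rose by 0.54. ZNF121 and ZNF562 differed by -0.06 and 0.07 without passing, and ZNF562 was called higher with hybridisation control centring (0.24, adjusted p = 0.0383 in limma).

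Genes listed as cofactors of KRAB zinc finger proteins moved in both directions. The list also holds 2 genes that are not such cofactors. They are ZFP57, itself a KRAB zinc finger gene (-0.03, not called), and PGBD1, a transposase-derived gene (-0.19, called lower). Of the 40 listed genes, called cofactors here and all measured, 8 rose (20.0%) and 12 fell (30%), with a median log2 difference of 0.006. Of all genes 12.1% rose and 15.6% fell. The median level of the list was 10.22, in the highest level bin, where 21.1% of all genes rose and 29.3% fell. The shares of the list are near those of that bin. With hybridisation control centring 15 rose and 3 fell, beside 28.8% and 4.53% of all genes. SETDB1, the methyltransferase brought by TRIM28, had log2 signals of 10.35, 10.27 and 10.36 under GDC-0941, against 10.07, 10.05 and 10.03 in controls, and rose by 0.28 ± 0.06 (SE; adjusted p = 0.00278 in limma). TRIM28 itself had 11.48, 11.48 and 11.59 under GDC-0941, against 11.79, 11.84 and 11.78 in controls, and fell by 0.28 ± 0.06 on the log2 scale (SE; adjusted p = 0.00295 in limma). With hybridisation control centring TRIM28 differed by -0.11 without passing. The other leading rises were MORC3, a nuclear body ATPase linked to silencing (0.75), MTA3 of NuRD (0.38) and the chromatin remodeller ATRX (0.30).

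The largest falls in the list were UHRF1 and DNMT1, which maintain DNA methylation through replication, and SUV39H2, a histone H3 lysine 9 methyltransferase. UHRF1 had log2 signals of 9.88, 9.70 and 9.75 under GDC-0941, against 10.69, 10.77 and 10.78 in controls, a log2 difference of -0.97 ± 0.06 (SE; adjusted p = 1.45e-06 in limma). DNMT1 had 10.33, 10.15 and 10.27 under GDC-0941, against 10.78, 10.68 and 10.83 in controls, a log2 difference of -0.51 ± 0.07 (SE; adjusted p = 0.000138 in limma). SUV39H2 differed by -0.43. UHRF1, DNMT1, TRIM28 and the NuRD subunits GATAD2A (-0.34) and MBD3 (-0.31) are the 5 listed cofactors that lie on chromosome 19. All 5 fell, a point made after the values were seen. They lay in the highest level bin. Of the 243 genes of chromosome 19 in that bin outside the zinc finger set, these 5 among them, 46.9% fell and 8.64% rose. With hybridisation control centring the calls of TRIM28, GATAD2A and MBD3 were lost, and UHRF1 and DNMT1 differed by -0.80 and -0.34. Of the 35 cofactors on other chromosomes 8 rose and 7 fell.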

How the data were processed

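Per the submitters' processing notes, the authors made the deposited values with RMA, which corrects background, normalizes between arrays and summarises each probe set; no version is named there. Per the labels' protocols, cRNA was made from 6 ug of total RNA. The deposited values were taken as log2 from their range (3.00 to 14.81). They carry no detection call. Of 54675 probe sets, 41091 other than controls name 1 gene in the platform annotation. Symbols and chromosomes were taken through the Entrez identifier from the RefSeq table of GRCh38.p14, and each gene was represented by its brightest such probe set, with no filter on level (19775 genes).

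GDC-0941 minus control was fitted with limma 3.58.1 in R 4.3.3 (lmFit, eBayes, two-sided, no pairing) and adjusted by Benjamini-Hochberg over all genes. A change was called at an adjusted p under 0.05. The fit was tested on simulated data. The number of arrays, 3 per group, limits precision: the median SE of a member was 0.07. Members, lists and motifs were chosen with earlier results of these data known. Named genes were the 10 largest rises and falls among called members whose groups did not overlap, members with known roles, the extremes of each cluster, and in the cofactor list TRIM28, SETDB1 and the 3 largest changes each way; others are stated to have been chosen later. Of the brightest and dimmest members, ZNF552 is described and ZNF404, at a mean level of 3.62, differed by 0.03. Protein features were planned and are not analysed here. Figures were drawn with matplotlib 3.10.9.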

Additional observations from a re-analysis of the deposited data

How the results depend on the processing

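The median of the 220 genes was above 0, and rises outnumbered falls, in every setting run. Centring on hybridisation controls gave 109 rises, 0 falls and a median of 0.23 (15 cofactors up and 3 down). At an unadjusted p under 0.05 in limma, 0 members fell under that centring. It adds 1 shift per array to all genes, and limma then gave every gene the same SE (0.0968), so its calls follow the size of the difference alone. Array weights, whose estimate did not fully converge, gave 85 rises, 27 falls and a median of 0.082 (14 cofactors up). With these weights rises made up a larger share of the member calls than of the calls over all genes, whose median was below 0. The counts of 85 and 27 alone do not set the members apart from other genes. The 92 members above the median level, fitted only with the other genes above it, gave 38 rises, 4 falls and a median of 0.11. Of the 10 falls described above, 0 were among those 4, and all 10 lie below that level. An adjusted p under 0.01 left 32 rises and 3 falls (7 cofactors down). Of the cofactors that rose, MORC3, MTA3, ATRX, EHMT1, SETDB1 and SMARCAD1 kept their calls at that threshold. Without each array in turn there were 40 to 52 rises and 5 to 9 falls; 35 of the 54 rises and 5 of the 10 falls held in all 6, and the cofactors gave 6 to 10 rises and 8 to 11 falls. ZNF552 turned to -0.15 with probe sets lacking an x, s or a suffix first ("unmarked"), and ZNF585A to 0.28 with the mean of probe sets. In ZNF585A the dimmer probe sets set that value. The calls lost by single named genes under array exclusion are given with those genes above. All 10 falls lost the call under hybridisation control centring. With the mean of all probe sets ZNF175 and ZNF568 lost their calls (adjusted p = 0.051 and 0.206 in limma). Same-numbered arrays deviated together at r = -0.35, 0.19 and -0.02, and differently numbered ones at -0.41 to 0.39. With 3 arrays per group these values cannot decide whether replicate numbers pair the samples. With the replicate block 47 rose and 11 fell. Rises then made up 81.0% of the member calls and 43.6% of the calls over all genes. ZNF30 lost its call with quantile normalization again (adjusted p = 0.05004 in limma). The cofactor alternatives and the split by suffix were chosen after seeing the data. Changes of about 0.2 are near the limit that 3 arrays per group can show.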
